A study of Homo sapiens with 4 samples.

Results

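Genes of mitosis, the spindle and the kinetochore were described in NCI-N87, an established line of human gastric carcinoma cells with an amplified ERBB2 gene. They are 46 genes picked by symbol for what they do (mitotic kinases, cyclins, spindle motors, kinetochore and checkpoint proteins and proliferation markers), of 60612 genes in the deposited table, and all 46 were found there under a single row each. The study compared 2 RNA-seq libraries of cells carrying the puromycin-selectable lentiviral vector PLVX-IRES-Puro with ZSCAN18, which codes for a SCAN-domain zinc finger protein, with 2 libraries of cells carrying the same vector without insert. In both groups the cells were transfected for 24 hours and then selected in puromycin for 4 days, 5 days in all, so the empty vector cells share the vector and the selection. Its title names an inhibition of growth by ZSCAN18 as the question. The labels do not say whether the libraries of a group came from separate cultures, so p-values here cover only library-to-library spread, which may be technical.

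A dividing cell enters mitosis when cyclin-bound CDK1 becomes active. Kinases and motor proteins then build the spindle, and kinetochores tie each chromosome to it. A checkpoint holds back the anaphase-promoting complex until every chromosome is attached, after which securin and cyclin B are destroyed and the cell divides. The transcripts of most of these genes are known to accumulate in G2 and M, so in a bulk culture their level follows the share of cells in those phases as well as the RNA per cell. In bulk libraries fewer dividing cells and less RNA per dividing cell cannot be told apart. Such genes are known to be timed largely through promoter elements named CHR (TTTGAA or TTCGAA), read by the MuvB complex, and through CCAAT boxes, read by NF-Y.

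Promoters of the 46 genes were searched for these letters because the elements tie the genes together in sequence. RefSeq promoter windows (GRCh38.p14, 250 bases before to 50 bases after the start) were found for 39 of the 46 genes, in 49 windows, and AURKA, BIRC5, BUB3, FOXM1, TPX2, TTK and UBE2C had none in the table used. CCAAT, searched on both strands, was in 77.6% of the windows of these genes and in 34.6% of all 35116 windows. TTTGAA on either strand was in 65.3% of their windows and 15.2% of all windows, and the palindrome TTCGAA in 8.16% and 1.45%. A CCAAT together with either CHR form was in 59.2% of their windows and 6.38% of all. In 151 windows of other genes of mitosis, described further below, CCAAT was in 47%, TTTGAA in 31.8% and TTCGAA in 5.96%. There a CCAAT together with either CHR form was in 17.9%. Some genes have more than 1 window, so windows are not independent. A match is a description of these letters and does not mark a bound site. Shown here are the 120 bases up to the base before the start of 4 genes chosen because no annotated exon overlaps that stretch, on the strand of the gene, with CCAAT or its reverse complement ATTGG and TTTGAA or its reverse complement TTCAAA in capitals:
MKI67 (chr10:128126424-128126543, minus strand): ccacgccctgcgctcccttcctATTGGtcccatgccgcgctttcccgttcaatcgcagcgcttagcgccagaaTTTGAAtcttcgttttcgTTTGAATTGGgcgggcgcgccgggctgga
KIF11 (chr10:92593010-92593129, plus strand): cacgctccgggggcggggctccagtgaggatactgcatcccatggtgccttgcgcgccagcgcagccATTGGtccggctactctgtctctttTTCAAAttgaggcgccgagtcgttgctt
ESPL1 (chr12:53268179-53268298, plus strand): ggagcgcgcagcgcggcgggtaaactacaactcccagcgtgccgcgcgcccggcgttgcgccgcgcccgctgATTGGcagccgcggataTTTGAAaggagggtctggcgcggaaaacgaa
CENPF (chr1:214603075-214603194, plus strand): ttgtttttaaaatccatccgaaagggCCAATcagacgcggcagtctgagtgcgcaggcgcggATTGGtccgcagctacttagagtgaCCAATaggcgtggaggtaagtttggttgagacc
In ESPL1 the ATTGG began 48 bases and the TTTGAA 31 bases before the start, and in KIF11 the ATTGG began 53 bases and the TTCAAA 28 bases before it. MKI67 held a pair of each, and the TTTGAA and ATTGG nearest its start overlap by 1 base. CENPF held 3 CCAAT boxes and no CHR form in the stretch shown.

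Levels are given in FPKM, which scales fragments to transcript length and to library size. Depth was estimated at 23100000 and 23400000 fragments in the ZSCAN18 libraries, against 23800000 and 24600000 in the empty vector libraries. ZSCAN18 itself stood at 116 and 112 FPKM in its own libraries and at 0.108 and 0.144 FPKM with the empty vector, and its columns carry no ZSCAN18 label but are those left once the empty vector columns were named. Of 8 markers of gastric and simple epithelium, 7 were at 1 FPKM or more in all libraries, TFF1 being the exception, and their summed level was 3817 and 3994 FPKM with ZSCAN18, against 4527 and 4294 FPKM with the empty vector. Fibroblast markers summed to 2.64 and 2.03 FPKM with ZSCAN18 and to 1.86 and 0.818 FPKM with the empty vector. Of 6 leukocyte markers, CD68 and LYZ were at 1 FPKM or more in all libraries, and the list summed to 4.65 and 5.42 FPKM with ZSCAN18 and to 6.43 and 7.82 FPKM with the empty vector. The part of these shifts in the results was not tested. Endothelial markers summed to at most 0.177 FPKM in any library. Differences below are on log2(FPKM + 1), ZSCAN18 minus empty vector, from limma fitted to 11822 genes with at least 1 FPKM in 2 libraries, a filter that all 46 genes passed. Over all tested genes the median difference was 0.04, and 0.002 after the libraries were rescaled by the median of their ratios, so a change is to be read against that shift. Differences given for single genes are not rescaled unless this is stated.

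Differences of the mitosis genes were mostly small, and a larger share of them lay below 0 than of all tested genes. None of the 46 passed an adjusted p of 0.05 in limma, where 1.77% of all tested genes did, 115 lower and 94 higher (189 lower and 92 higher after median-of-ratios scaling). At an unadjusted p under 0.05 there were 8 lower genes of 46, beside 11.0% of all tested genes, and 1 higher gene, beside 15.9%. In the authors' deposited table the p-value was under 0.05 in 4 of the 46, beside 11.2% of the tested genes. None of the 46 carried that table's mark of significance, beside 2.23% of the tested genes. Every marked gene in the authors' deposited table, however, changed by at least 1 on the log2 scale, and the furthest from 0 among the 46 was SPC24 at -0.80. The q-value of marked genes reached 0.44, so the mark is not a cut-off on a low q-value. The median difference of the 46 genes was -0.06, with 31 of 46 below 0, where 42.9% of all tested genes were below 0. After median-of-ratios scaling the median was -0.11, with 36 of 46 below 0, where 49.6% of all tested genes were. Without the second ZSCAN18 library it was -0.04. Both ZSCAN18 libraries lay below both empty vector libraries in 19 genes and above them in 7, a separation seen in 24.4% and 35.8% of all tested genes. In 20 genes the groups overlapped. The median absolute difference was 0.09, against 0.16 over all tested genes, and 30 of the 46 differed by less than 0.1, as did 32.4% of all tested genes. Libraries of 1 group also differed less in the 46 genes, by a median of 0.07 and 0.06, against 0.10 over all tested genes. Neither these sizes nor the intervals below were compared with genes of like level.

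**Figure D1:**
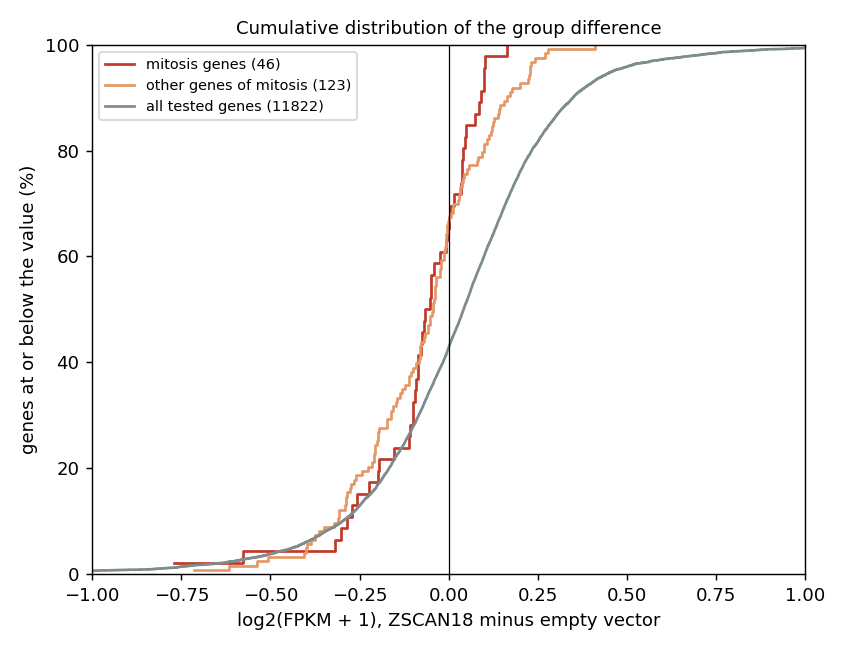
Cumulative share of genes (y axis, percent) at or below each difference in log2(FPKM + 1), ZSCAN18 minus empty vector (x axis), for the 46 mitosis genes, the 123 other genes of mitosis and all 11822 tested genes. The curve of the 46 genes is steeper and crosses 50% at -0.06, against 0.04 for all tested genes.

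The intervals give the size of change that these libraries allow. For 42 of the 46 genes the 95% interval of the difference lay within 1.5-fold in either direction on the log2(FPKM + 1) scale, as it did for 70.9% of all tested genes. The 4 others were BIRC5, whose interval lay wholly below 0, and SPC24, MKI67 and CDC25B, whose libraries spread widely within a group. On that scale SPC24 alone differed by 1.5-fold or more, as did 5.63% of all tested genes. BIRC5 fell short there because 1 was added to its low FPKM: its mean FPKM was 36.4% lower with ZSCAN18, and its difference was -0.64 with a pseudocount of 0.1, past 1.5-fold. Summed over the 46 genes the level was 989 and 991 FPKM with ZSCAN18, against 1055 and 1047 FPKM with the empty vector. As a share of all FPKM this was 0.337% and 0.335% with ZSCAN18, against 0.338% and 0.344% with the empty vector. The share of the first empty vector library thus lay close to those of the ZSCAN18 libraries. All FPKM summed to 293062 and 296112 with ZSCAN18, against 312147 and 304029 with the empty vector. Mitochondrial genes held 33.7% to 35.2% of that total. Median-of-ratios scaling went the other way from this share, and moved the median difference of the 46 genes from -0.06 to -0.11.

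**Figure D2:**
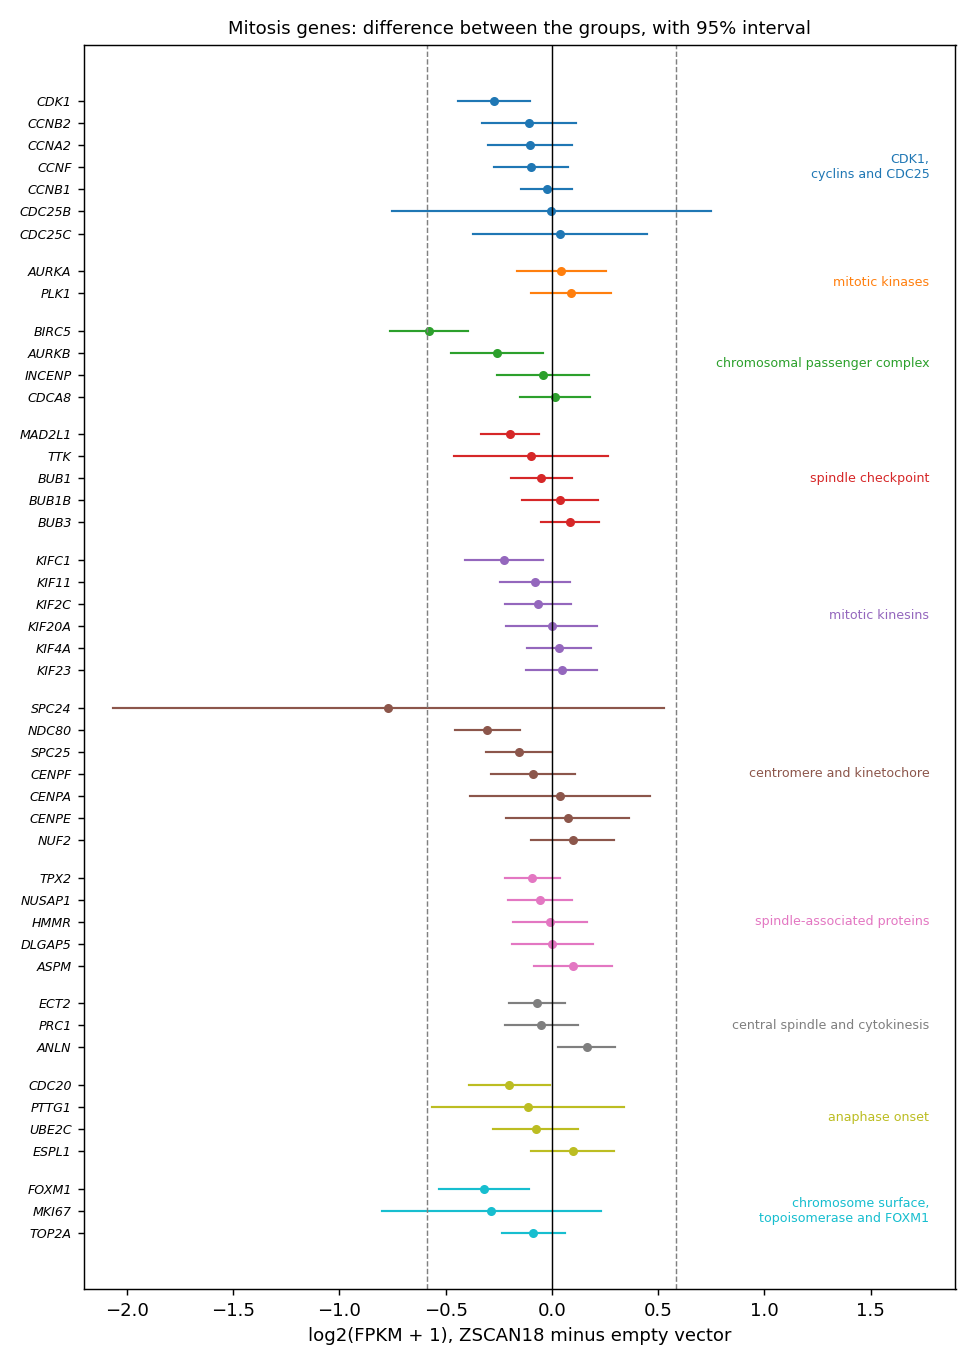
Difference in log2(FPKM + 1), ZSCAN18 minus empty vector (x axis; point, with the 95% interval from limma as a line), for the 46 mitosis genes ordered by role; dashed lines mark 1.5-fold. Most intervals include 0 and end within the dashed lines, BIRC5 lies to the left with an interval from -0.76 to -0.39, and SPC24, MKI67 and CDC25B have the widest intervals.

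Of the genes of mitotic entry, CDK1, the kinase that drives it, had the smallest p. CDK1 (chromosome 10, 60778331 to 60794852, GRCh38) stood at 25.6 and 26.3 FPKM with ZSCAN18, against 32.7 and 30.3 FPKM with the empty vector. Both ZSCAN18 libraries were below both others, with a difference of -0.27 (SE 0.061, 95% interval -0.44 to -0.10), but the limma adjusted p was 0.102. Its partner cyclin B1 (CCNB1) was at 60.6 and 60.7 FPKM with ZSCAN18, against 61.8 and 61.6 FPKM with the empty vector, an interval of -0.14 to 0.09 and the smallest SE of the 46 genes. Cyclin A2 (CCNA2), which acts from S phase into mitosis, had 53.7 and 48.5 FPKM with ZSCAN18 and 53.5 and 56.2 FPKM with the empty vector, and its groups overlapped. Cyclin B2 (CCNB2), the other B-type cyclin, and CCNF, which marks proteins for destruction, had differences of -0.11 and -0.10 with adjusted p of 0.438 and 0.391 in limma.

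The phosphatases that switch CDK1 on gave wide intervals. CDC25B had 9.13 and 9.31 FPKM with ZSCAN18, against 12.3 and 6.89 FPKM with the empty vector, so the ZSCAN18 libraries lay between the empty vector libraries. Its interval, -0.75 to 0.75, leaves even a change of 1.5-fold undecided, and the difference was 0.37 without the first and -0.38 without the second empty vector library. CDC25C had 3.41 and 2.88 FPKM with ZSCAN18, against 3.50 and 2.61 FPKM with the empty vector, with overlapping groups. PLK1, the kinase of centrosome maturation and mitotic entry, had 19.9 and 21.9 FPKM with ZSCAN18, against 19.7 and 19.4 FPKM with the empty vector. AURKA, which acts at the spindle poles, had 24.5 and 25.2 FPKM with ZSCAN18 and 22.7 and 25.5 FPKM with the empty vector. Neither kinase passed, with limma adjusted p of 0.449 and 0.728 and intervals of -0.10 to 0.28 and -0.16 to 0.25.

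The chromosomal passenger complex, which corrects faulty attachments and later steers cytokinesis, held the gene nearest to a call. BIRC5, or survivin, its targeting subunit (ENSG00000089685, chromosome 17, 78214186 to 78225636, plus strand, GRCh38), had 5.84 and 6.16 FPKM with ZSCAN18, against 9.21 and 9.66 FPKM with the empty vector. The groups were far apart beside their spread, with means of 6.0 ± 0.229 and 9.43 ± 0.315 FPKM (SD, n = 2 each) and a difference of -0.58 (SE 0.066). Its limma adjusted p of 0.0508 missed the threshold. That p was 0.0421 after median-of-ratios scaling, 0.0451 after quantile normalization and 0.0381 when only genes of at least 5 FPKM were tested. It rose to 0.0646 without the variance trend, 0.141 without the low filter and 0.152 with the replicate number as a block. Without 1 of the 4 libraries the adjusted p lay between 0.170 and 0.217. In the authors' deposited table its log2 fold change was -0.65 with a q-value of 0.0760.

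The other subunits of that complex did not share the size of this difference. The catalytic kinase AURKB had 6.03 and 5.37 FPKM with ZSCAN18, against 7.01 and 6.98 FPKM with the empty vector, without overlap (difference -0.26, SE 0.078, limma adjusted p = 0.148). INCENP, the scaffold, had 12.2 and 12.0 FPKM with ZSCAN18, against 13.3 and 11.8 FPKM with the empty vector. CDCA8, or borealin, had 25.1 and 26.0 FPKM with ZSCAN18, against 24.5 and 26.1 FPKM with the empty vector. The intervals of INCENP and CDCA8, -0.26 to 0.17 and -0.15 to 0.18, both include 0. Whether the subunits differ from each other in their response was not tested.

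Within the spindle checkpoint, MAD2L1, which is loaded onto CDC20 to hold back anaphase, was the gene with the smallest p. It had 22.9 and 23.5 FPKM with ZSCAN18, against 26.5 and 27.0 FPKM with the empty vector, with no overlap and a difference of -0.20 (SE 0.049, limma adjusted p = 0.117). BUB1, a kinetochore kinase, had 13.5 and 13.3 FPKM with ZSCAN18 and 13.8 and 14.0 FPKM with the empty vector. That separation without overlap came with a difference of only -0.05, which shows that 4 libraries can be ordered by group at a very small difference. BUB1B, the checkpoint protein BubR1, and BUB3, which carries it to the kinetochore, stood at 0.04 and 0.09, and TTK, the kinase that starts the signal, at -0.10 with adjusted p of 0.736, 0.338 and 0.658 in limma. TTK had 1 empty vector library at 11.5 FPKM and the other at 9.04 FPKM, beside 9.88 and 9.06 FPKM with ZSCAN18.

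Of the centromere and kinetochore genes, the 4 subunits of the NDC80 complex, which binds spindle microtubules, behaved unequally in these libraries. NDC80 (chromosome 18, 2571557 to 2616635, plus strand, GRCh38) had 16.5 and 17.3 FPKM with ZSCAN18, against 21.3 and 20.9 FPKM with the empty vector. It separated without overlap at -0.30 (SE 0.055, limma adjusted p = 0.0788), the second smallest p of the 46 genes. NUF2, its direct partner, had 8.24 and 8.86 FPKM with ZSCAN18, against 8.13 and 7.71 FPKM with the empty vector, so both ZSCAN18 libraries were higher (difference 0.10, adjusted p = 0.426 in limma). SPC25 had 14.9 and 15.4 FPKM with ZSCAN18, against 17.3 and 16.6 FPKM with the empty vector, at a difference of -0.15 and an adjusted p of 0.188 in limma. The difference between NDC80 and NUF2 was not tested.

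SPC24, the fourth subunit, rested on 1 library. SPC24 (chromosome 19, 11131520 to 11155808, minus strand, GRCh38) had 4.46 and 1.22 FPKM with ZSCAN18, against 5.36 and 4.56 FPKM with the empty vector. Its first ZSCAN18 library lay just under the empty vector libraries and its second far under. The difference of -0.77 (SE 0.468, limma adjusted p = 0.360) was -1.42 when the first ZSCAN18 library was left out and -0.12 when the second was. At the estimated depth its lowest value stood for about 21.7 fragments, a counting error of 21.5%. The part of counting error in the gap between the ZSCAN18 libraries was not tested.

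In the remaining kinetochore genes the groups overlapped. CENPA, the histone variant that marks centromeres, had 4.51 and 3.23 FPKM with ZSCAN18, against 3.58 and 3.82 FPKM with the empty vector, and the ZSCAN18 libraries lay to either side. CENPE, a kinetochore motor, and CENPF, a large kinetochore protein, had differences of 0.07 and -0.09, and their groups overlapped. CENPA, CENPE and CENPF did not pass, with adjusted p of 0.888, 0.678 and 0.482 in limma. Their 95% intervals were -0.38 to 0.46, -0.21 to 0.36 and -0.29 to 0.11.

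**Figure D3:**
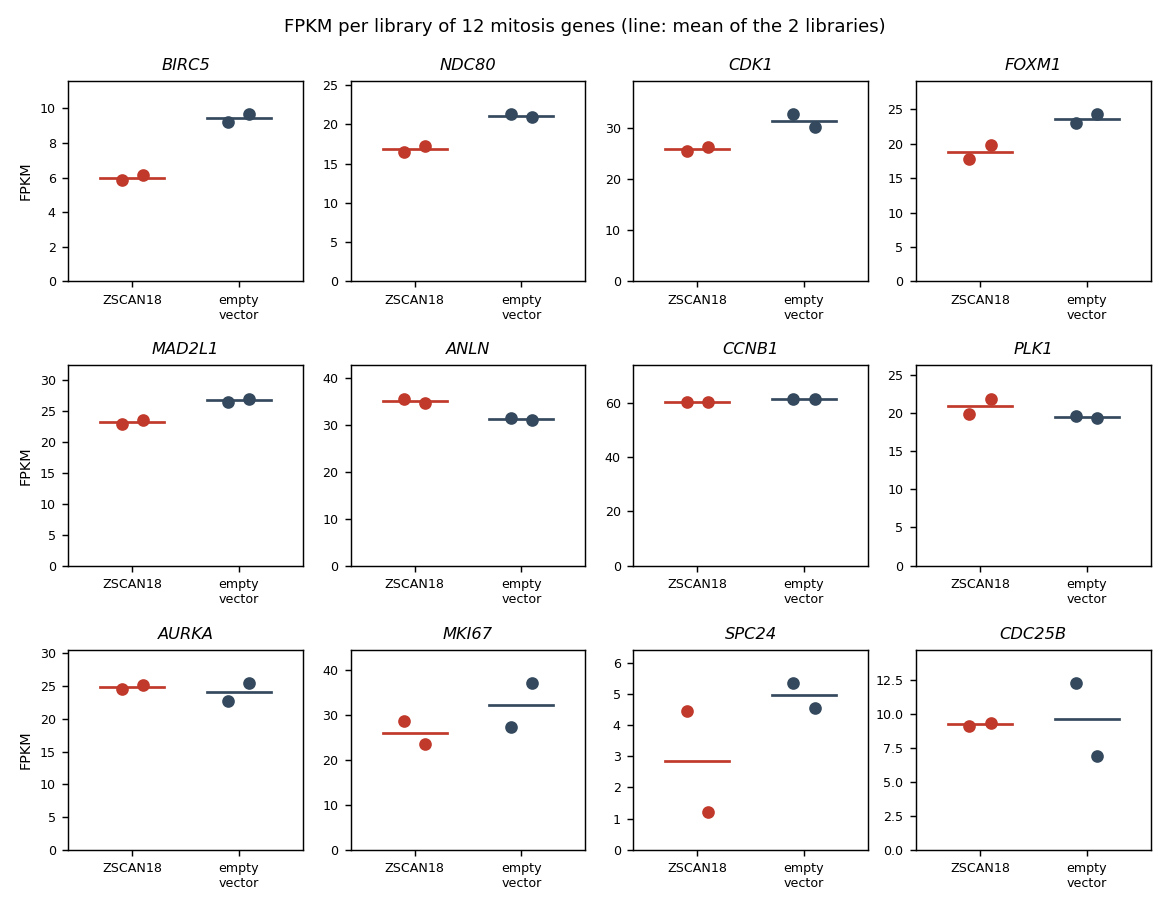
FPKM (y axis, from 0) in each library of 12 mitosis genes, ZSCAN18 on the left and empty vector on the right of each panel; points are libraries and lines are means. BIRC5 at 5.84 and 6.16 FPKM with ZSCAN18 lies clear of 9.21 and 9.66 FPKM with the empty vector, while CCNB1 is level and SPC24, MKI67 and CDC25B each have a library far from its partner.

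Among the 6 mitotic kinesins, KIFC1, a minus-end motor that bundles spindle poles, was the single gene with an unadjusted p under 0.05. It had 9.46 and 9.84 FPKM with ZSCAN18, against 11.0 and 11.8 FPKM with the empty vector (difference -0.22, SE 0.066, limma adjusted p = 0.143). KIF11, the plus-end motor that pushes spindle poles apart, had 25.1 and 23.5 FPKM with ZSCAN18, against 26.1 and 25.3 FPKM with the empty vector, at -0.08. The other 4, KIF2C, KIF4A, KIF20A and KIF23, lay between -0.07 and 0.05, and their intervals all included 0 and ended within 1.5-fold. KIF2C takes microtubules apart, KIF4A acts on chromosome arms and the midzone, and KIF20A and KIF23 act at the central spindle.

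None of the 5 spindle-associated proteins had an unadjusted p under 0.05. ASPM, which acts at spindle poles, had 9.48 and 8.79 FPKM with ZSCAN18, against 8.44 and 8.46 FPKM with the empty vector, a difference of 0.10 (SE 0.066, limma adjusted p = 0.390) that was 0.05 without the first ZSCAN18 library. TPX2, the activator of AURKA, had 54.4 and 54.6 FPKM with ZSCAN18, against 57.0 and 59.2 FPKM with the empty vector, at -0.09. HMMR, NUSAP1 and DLGAP5, which stabilise or bundle spindle microtubules, lay between -0.05 and 0.002 with adjusted p of at least 0.568 in limma.

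ANLN, the actin-binding scaffold of the cleavage furrow, was the 1 gene of the 46 that was higher at an unadjusted p under 0.05. It had 35.5 and 34.6 FPKM with ZSCAN18, against 31.5 and 30.9 FPKM with the empty vector, without overlap (difference 0.16, SE 0.048, limma adjusted p = 0.142). ECT2, which activates RhoA at that furrow, had 42.6 and 41.2 FPKM with ZSCAN18, against 44.2 and 43.8 FPKM with the empty vector. PRC1, the microtubule bundler of the midzone, had 15.8 and 16.9 FPKM with ZSCAN18, against 17.2 and 16.7 FPKM with the empty vector, and neither ECT2 nor PRC1 passed (differences of -0.07 and -0.05).

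Of the genes of anaphase onset, CDC20, the activator of the anaphase-promoting complex, had 53.2 and 59.0 FPKM with ZSCAN18, against 65.5 and 63.5 FPKM with the empty vector. The difference was -0.20 (SE 0.069, limma adjusted p = 0.178), without overlap, and -0.13 without the first ZSCAN18 library. Per kilobase, CDC20 was above CCNB1 in both empty vector libraries and below it in both ZSCAN18 libraries. UBE2C, the ubiquitin-conjugating enzyme of that complex, had 37.8 and 41.9 FPKM with ZSCAN18, against 42.9 and 41.0 FPKM with the empty vector, with overlap. Securin (PTTG1), which inhibits separase, had 21.4 and 29.5 FPKM with ZSCAN18, against 27.1 and 27.4 FPKM with the empty vector, so its ZSCAN18 libraries lay to either side. Its difference was 0.11 without the first and -0.33 without the second ZSCAN18 library. Separase itself (ESPL1), whose promoter stretch with ATTGG and TTTGAA is shown above, had 4.04 and 3.81 FPKM with ZSCAN18, against 3.57 and 3.62 FPKM with the empty vector (difference 0.10, adjusted p = 0.428 in limma).

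Proliferation markers and the transcription factor FOXM1 came last. MKI67, which coats mitotic chromosomes and is the gene of the Ki-67 antigen, had 28.6 and 23.5 FPKM with ZSCAN18, against 27.3 and 37.1 FPKM with the empty vector. The groups overlapped, the difference of -0.28 had an interval of -0.80 to 0.23, and with 1 library left out it lay between -0.50, without the first empty vector library, and -0.07, without the second (limma adjusted p = 0.389 with all libraries and 0.256 to 0.807 over the alternatives). TOP2A, the topoisomerase that untangles sister chromatids and the most abundant of the 46 per kilobase, had 92.4 and 88.2 FPKM with ZSCAN18, against 98.4 and 93.7 FPKM with the empty vector, at -0.09. FOXM1, which drives many G2 and M genes together with MuvB, had 17.7 and 19.8 FPKM with ZSCAN18, against 23.1 and 24.3 FPKM with the empty vector. FOXM1 separated without overlap at -0.32 (SE 0.077, limma adjusted p = 0.110), and it overlaps RHNO1 and ITFG2 on the opposite strand. RHNO1 had 9.60 and 8.81 FPKM with ZSCAN18, against 9.53 and 11.3 FPKM with the empty vector. No source used here says if the counting was stranded. Other genes of the 46 also overlap a gene with signal, CENPA, KIF4A, CCNA2, KIF20A and NUSAP1 among them. CENPA overlaps SLC35F6 on the same strand, at 11.4 and 10.8 FPKM with ZSCAN18 and 11.0 and 11.1 FPKM with the empty vector. KIF4A overlaps PDZD11 on the opposite strand, at 18.5 and 20.6 FPKM with ZSCAN18 and 18.8 and 20.1 FPKM with the empty vector. The part of such overlaps in the values was not tested.

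The difference between the groups was larger than both differences between libraries of a group in 20 of the 46 genes, where 48.4% of all tested genes showed this. The median absolute difference between libraries was 0.07 within the ZSCAN18 group and 0.06 within the empty vector group, against 0.10 in each over all tested genes. Gaps within a group were widest in SPC24, followed by PTTG1 (-0.44, first minus second library), for ZSCAN18, and in CDC25B (0.75) and MKI67 (-0.43) for the empty vector. Counting error was at most about 10.7% for the lowest values of the other 45 genes at the estimated depth. That bound is rough, since depth was estimated and each gene was given its median coding transcript length. The order of levels was kept between the groups (Spearman's rho 0.99 over the 46 genes, which share libraries and are not independent). TOP2A, CDC20, CCNB1, TPX2 and CCNA2 were above 50 FPKM on average in both groups, and CDC25C, CENPA, CENPE, ESPL1 and SPC24 below 5 FPKM in both.

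**Figure D4:**
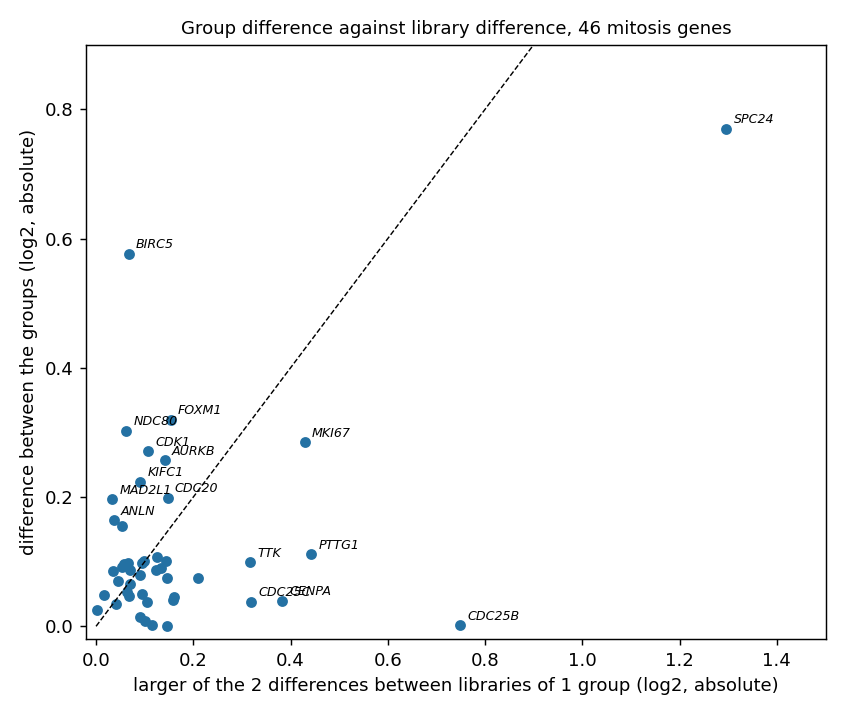
Absolute difference between the groups (y axis) against the larger of the absolute differences between libraries of 1 group (x axis), both on log2(FPKM + 1), for the 46 mitosis genes; the dashed line marks equality. Of the genes, 20 lie above the line, BIRC5 furthest, while CDC25B, SPC24, CENPA, PTTG1 and CDC25C lie furthest below it.

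Other genes of mitosis, 123 in 6 lists of partners and regulators, were all tested. Of these, 1 fell and 0 rose at an adjusted p under 0.05 in limma, where 0.973% and 0.795% of all tested genes did, and 26 were lower and 5 higher at an unadjusted p under 0.05, beside 11.0% and 15.9% of all tested genes. Their median difference was -0.04, with 83 of 123 below 0, beside 42.9% of all tested genes. That median was -0.09 after median-of-ratios scaling and -0.08 after quantile normalization. The gene that fell was CENPM, a subunit of the inner kinetochore network. CENPM had 6.69 and 6.16 FPKM with ZSCAN18, against 11.2 and 11.2 FPKM with the empty vector (difference -0.71, SE 0.067, adjusted p = 0.0394). The call was lost with the replicate number as a block, without the variance trend, without the low filter and without any 1 library.

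By list, the inner centromere and outer kinetochore partners had a median of -0.17, with 22 of 28 below 0. Besides CENPM they included CENPH, another subunit of the inner network, at -0.41 (adjusted p = 0.0866 in limma). Of 20 condensin and cohesin genes, 13 were below 0, with a median of -0.06. SMC1A, the cohesin ATPase, had 13.3 and 12.7 FPKM with ZSCAN18, against 18.9 and 19.9 FPKM with the empty vector, and its difference of -0.54 missed the threshold at a limma adjusted p of 0.0505. NCAPH, a condensin subunit, stood at -0.39 (adjusted p = 0.0649 in limma). Of 27 genes of entry and exit control, 19 were below 0, with a median of -0.08; the phosphatase CDKN3, which acts on CDKs, had 12.3 and 13.1 FPKM with ZSCAN18, against 21.1 and 18.8 FPKM with the empty vector (-0.61, adjusted p = 0.0576 in limma). KIF22, a chromosome-arm motor, stood at -0.32.

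The 18 centrosome and centriole genes had a median of -0.02, with CEP55, which acts in abscission, at -0.38 and TUBG1, gamma-tubulin, at -0.29 (limma adjusted p of 0.0582 and 0.0715). The 17 genes of the anaphase-promoting complex had a median of -0.01, with 11 below 0. Their list held values of opposite sign: FBXO5, the inhibitor EMI1, at -0.40 and CDC27, a core subunit, at 0.23, with adjusted p of 0.0807 and 0.110 in limma. The 13 MuvB, MYB and pocket protein regulators had a median of -0.01, with MYBL2, a partner of MuvB, at 51.3 and 52.6 FPKM with ZSCAN18, against 61.3 and 66.4 FPKM with the empty vector (-0.29, adjusted p = 0.0900 in limma), and RBL1, the pocket protein p107, at -0.27.

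The deposited table annotates 124 genes to the KEGG cell cycle pathway, among them 15 of the 46. Of the 100 other annotated genes that were tested, 49 were below 0, beside 42.9% of all tested genes, and the median difference was 0.01. Among them 1 fell and 1 rose, with limma's adjusted p under 0.05, beside 0.973% and 0.795% of all tested genes, and both are named after their values were seen. Both calls were lost without the low filter, without the variance trend, with the replicate number as a block and without any 1 library. TGFB2, a ligand of the TGF-beta pathway, had 5.45 and 5.33 FPKM with ZSCAN18, against 10.6 and 9.46 FPKM with the empty vector (difference -0.78, SE 0.078, limma adjusted p = 0.0408). CDKN2B, the inhibitor p15 of the G1 kinases, had 14.8 and 13.4 FPKM with ZSCAN18, against 7.29 and 6.51 FPKM with the empty vector (difference 0.94, SE 0.088, limma adjusted p = 0.0394).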

How the data were processed

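The sources give RNA from NCI-N87 cells extracted with Trizol and sequenced by a standard Illumina protocol. Tools listed in the submitters' processing notes are HISAT2 2.0.4 and StringTie 1.3.4d, then cutadapt 1.9 and FastQC 0.10.1, and also DESeq2 and edgeR 3.2.5, with no role or genome build. The authors deposited a single table, which per the file headers holds each library's FPKM, a linear fold (the ratio of summed FPKM), its log2 value, a p-value and a q-value. An FPKM of 0.0001 stands for no signal. The ZSCAN18 columns were assigned by elimination; their numbers 1 and 2 are those of the columns.

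Of 58394 gene identifiers shared with GENCODE 29, 99.7% lay within 100 kb there, and 45 of the 46 genes had both ends within 10 kb, and coordinates are therefore called GRCh38.

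Depth was estimated by taking the commonest product of FPKM and length in a preset low range, over single-exon, single-transcript genes, as 1 fragment. Low values came within 0.02 of a whole multiple in only 16.4 to 17.5% of cases, so reads were not recovered and no count test was run. Counting errors use the median coding transcript length and cover counting error only.

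The test was limma 3.58.1 (R 4.3.3) on log2(FPKM + 1), a scale that understates the change of low genes, with an intensity trend (2 residual and 2.01 prior degrees of freedom) and two-sided p-values adjusted by Benjamini-Hochberg over 11822 genes. With 2 libraries a group, the smallest p of an exact permutation test is 0.333. The 46 genes and all lists were chosen with earlier results of these data known. All 46 genes are named, and of each of the 6 other mitosis lists the 2 genes with the smallest p and every called gene. Alternatives were other pseudocounts, filters and scalings, no trend, a replicate block and leaving out each library. They were also run for the named genes outside the 46, a choice made after seeing the data. No sample was left out of the main fit. A marker and an overlapping gene are not reported here.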

Additional observations from a re-analysis of the deposited data

How the results depend on the processing

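No alternative called more than 1 of the 46 genes. That count was 1, BIRC5, with a filter of 5 FPKM, with median-of-ratios scaling and with quantile normalization, and 0 in the others. The median of the 46 genes was -0.11 after median-of-ratios scaling and -0.073 to -0.038 with 1 library left out. All genes tested gave 209 calls among 11822 genes, and 99 without the trend. There were 370 calls among 6534 genes with a filter of 5 FPKM, and 1 among 30288 without a filter. Median of ratios gave 281 and quantile normalization 261, each among 11822. The filter of 5 FPKM kept 41 of the 46 genes and 88 of the 123 other genes. With it, 5 of those 88 were called. Of the 123 other genes, 3 were called with median of ratios, 2 with quantile normalization and 0 without a filter or without the trend. These counts are to be read beside those over all genes tested. Their median was -0.055 with a pseudocount of 0.1, -0.053 with the filter of 5 FPKM, -0.087 with median of ratios, -0.081 with quantile normalization and -0.061 to -0.045 with a library left out.

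With the replicate number as a block, 1 gene was called of all tested, 0 of the 46 and 0 of the 123. Same-numbered libraries deviated together with a correlation of 0.034 across genes. The labels give the numbers no meaning, and those of the ZSCAN18 libraries are the numbers of the columns. Whether same-numbered libraries share a batch is therefore not known.

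The sign of 15 of the 46 genes turned under some alternative, none of them with a difference over 0.11 as reported. With median of ratios AURKA was at -0.0021, CDCA8 at -0.032, BUB1B at -0.0090, KIF4A at -0.011 and DLGAP5 at -0.044. Without a turn of sign, that scaling put ANLN at 0.117, NUF2 at 0.054, PLK1 at 0.043, CCNB1 at -0.073 and BUB1 at -0.094. With quantile normalization CCNB1 was at 0.027, CDC25C at -0.020 and CENPA at -0.013. CDC25B was at 0.0034 with a pseudocount of 0.1 and at 0.00097 with a pseudocount of 0.5. With each library left out in turn, the ranges were CDC25B -0.38 to 0.37, CDC25C -0.12 to 0.20, KIF20A -0.073 to 0.073, CENPA -0.15 to 0.23, DLGAP5 -0.055 to 0.060, PTTG1 -0.33 to 0.11, CDCA8 -0.030 to 0.060, AURKA -0.034 to 0.12, INCENP -0.12 to 0.039, TTK -0.26 to 0.059, HMMR -0.059 to 0.041, BUB1B -0.014 to 0.090 and CENPE -0.030 to 0.18. The cause of these shifts was not tested. At the estimated depth, the largest counting error of the 46 genes was that of SPC24, at 21.5% for its lowest value.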

Other observations

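Near-identical copies of the mitosis genes were low. The retrocopy KIF4B was at 0.189 and 0.111 FPKM with ZSCAN18, against 0.0987 and 0.124 FPKM with the empty vector, and PTTG2 was at no signal in all 4 libraries. AURKAP1, a pseudogene of AURKA, was at 1.72 and 1.05 FPKM with ZSCAN18, against 0.569 and 0.250 FPKM with the empty vector. It was picked after its values were seen and given no test. How reads were split between AURKA and its copy is uncertain.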
